A study of Homo sapiens with 24 samples.

Results

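The BH3-only proapoptotic genes were examined in HT29 cells across 6 groups of arrays. The 8 members BIK, BCL2L11 (BIM), BBC3 (PUMA), PMAIP1 (NOXA), BMF, HRK, BID and BAD were found by their gene name among the probes of the array, controls left out, which gave 13 of 50599 probes. Of these, 12 probes of 7 genes had a signal well above background throughout the 4 arrays of some group and were tested, among 27940 probes tested in all. The only probe of HRK did not reach this level.

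HT29 is an established human colon adenocarcinoma line, grown here in DMEM with 10% heat-inactivated fetal calf serum. All cultures were collected after 6 h. Untreated cells (NT) were compared with cells given C3/C2, a mix of propionate at 30 mM and acetate at 15 mM, or SN, the supernatant of a propionibacterial culture diluted to 1/2, whose main metabolites are these acids at these amounts. TRAIL, a ligand of death receptors, was given at 100 ng/ml together with an anti-Flag M2 antibody at 2 µg/ml, alone or with C3/C2 (TRAIL+C3/C2) or SN (TRAIL+SN). Each group had 4 Cy3-labelled arrays, 24 in all. The 4 arrays of a group came from 2 independent experiments run in duplicate, and the labels do not say which arrays share an experiment. They were fitted as 4 replicates, so p-values measure the spread between these arrays, which is in part technical. HT29 is 1 line, kept as a monolayer outside the tissue, and SN is a mixture of which only the acids were tested on their own. All 10 colon epithelial markers looked for were well above background on all 24 arrays, and of 10 markers of leukocytes, fibroblasts and endothelium 5 were too, 3 were so on some arrays and COL1A2 and DCN on none.

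BH3-only proteins share with the BCL2 family only the short BH3 helix, through which they bind other family members. They hold the anti-apoptotic proteins BCL2, BCL-XL and MCL1, and some of them (BIM, BID and PUMA) also activate BAX and BAK, which permeabilize the outer mitochondrial membrane. In many epithelial cells BID joins the death receptors bound by TRAIL to mitochondria, after its cleavage by caspase-8, while most other members are set by transcription or by phosphorylation.

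The probes of the members that changed are shown first, since probes of the same gene did not all move together. Each is 60 bases long, of which bases 31 to 60 are printed 5′ to 3′, with the hexamer AATAAA, the usual polyadenylation signal, in capitals. Positions are those given by the array design on hg19, and they were not placed in exons or introns here.
BIK A_23_P404667, chr22:43525495-43525554: tggctctgcaattgtcaccggttaactgtg
BCL2L11 A_24_P122921, chr2:111925892-111925951: gggtaattgccactttacttgtgcaatact
BCL2L11 A_33_P3398526, chr2:111878705-111878764: tgactctgactctcggactgagaaacgcaa
BCL2L11 A_33_P3251932, chr2:111886352-111886411: tatggtcattggtgattaAATAAAatgtat
BBC3 A_23_P382775, chr19:47724174-47724233: tgtaagatactgtatatgcgctgctgtaga
PMAIP1 A_33_P3619171, chr18:57570691-57570750: aatatAATAAAagaacatggggattttgta
BMF A_23_P379649, chr15:40380450-40380509: agcggaaaaagctgagctcataggtgccca
BMF A_33_P3346801, chr15:40383984-40384043: acaggaacggggcaggccctaggtgagggt

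The hexamer stood in the printed stretch of 1 BCL2L11 probe and of the PMAIP1 probe, and in 6.08% of all 50599 probes. The 3 BCL2L11 probes lie apart along chromosome 2, and A_33_P3251932, which did not follow the other BCL2L11 probes, lies between them. The HRK probe lies at chr12:117299053-117299112, the BID probes at chr22:18218182-18218241 (A_24_P187948) and chr22:18218265-18218324 (A_33_P3227041), and the BAD probes at chr11:64037483-64037542 (A_33_P3262043) and chr11:64044428-64044487 (A_33_P3402076).

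Promoter windows of RefSeq (GRCh38.p14) were held for 7 of the 8 members. BIK had none, so it is not printed although its probe was called higher with C3/C2 and with SN. The 250 bases before the start of 3 genes are printed, read 5′ to 3′ along the gene, because each had at least 1 probe called higher both with C3/C2 and with SN (1 of the 3 BCL2L11 probes lay lower with C3/C2). Capitals mark the GC box GGGCGG and the forkhead motif GTAAACA, on either strand, and the AP-1 motif TGANTCA, which reads as itself on the other strand. Matches may overlap.
BCL2L11, chr2:111120664-111120913, plus strand: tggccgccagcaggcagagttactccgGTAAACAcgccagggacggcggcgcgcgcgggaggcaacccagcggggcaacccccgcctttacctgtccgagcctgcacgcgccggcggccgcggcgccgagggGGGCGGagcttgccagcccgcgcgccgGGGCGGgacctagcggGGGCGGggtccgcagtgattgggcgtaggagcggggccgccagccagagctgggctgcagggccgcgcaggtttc
BBC3, chr19:47232668-47232917, minus strand: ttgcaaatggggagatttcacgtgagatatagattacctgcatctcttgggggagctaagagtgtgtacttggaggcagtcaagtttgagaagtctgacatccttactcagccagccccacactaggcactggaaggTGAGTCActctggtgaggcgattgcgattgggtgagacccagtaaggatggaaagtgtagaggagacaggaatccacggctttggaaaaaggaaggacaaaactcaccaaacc
BMF, chr15:40108880-40109129, minus strand: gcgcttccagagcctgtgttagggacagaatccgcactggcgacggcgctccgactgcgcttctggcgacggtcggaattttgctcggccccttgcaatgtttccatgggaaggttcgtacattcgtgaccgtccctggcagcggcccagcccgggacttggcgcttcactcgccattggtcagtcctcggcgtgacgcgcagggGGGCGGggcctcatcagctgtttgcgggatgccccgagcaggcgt

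The BCL2L11 window held 3 GC boxes and 1 forkhead motif, the BBC3 window 1 AP-1 motif and no GC box, and this BMF window 1 GC box. A second BMF window, at chr15:40106967-40107216, held none of the motifs. Windows of the members not printed held GC boxes too, 4 for PMAIP1, 2 for HRK, 1 in each for BAD and 0 to 4 for BID. They held no AP-1 or forkhead motif. Of 35116 windows of the same length, 42.6% held a GC box, 6.57% an AP-1 motif and 2.98% a forkhead motif. These are matches of letters only.

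Levels are log2 intensities minus that of each array's 75th percentile, and a difference was called when it reached 2-fold with an adjusted p under 0.05 (limma over all 24 arrays, with Benjamini-Hochberg adjustment across 27940 probes). With C3/C2, BMF, BIK, BBC3 and BCL2L11 rose against NT: 6 of 12 probes were called higher and none lower, where 13.3% of all probes were called higher and 6.22% lower. Probes of the same 4 genes made up the 6 of 12 called higher with SN, again with none lower, where 14.1% and 9.69% of all probes were. With TRAIL alone no member was called, where 0.723% and 2.11% of all probes were. TRAIL+C3/C2 raised 7 of 12 probes, of 5 genes, PMAIP1 joining the others (16.4% of all probes higher, 8.12% lower). TRAIL+SN raised as many probes and genes, PMAIP1 among them (16.1% higher, 10.2% lower). No member was called lower in these comparisons. Among the 11 member probes well above background on all 24 arrays, 5 were called with C3/C2, 5 with SN and 6 with each co-treatment. This leaves out the second BMF probe, which passed the filter through the groups where it is high and is in the counts of 12. The share of all probes called under this stricter filter was not taken, so these counts have no background beside them. Past the adjusted p alone, whatever the fold, members were 7 higher and 3 lower with C3/C2, where all probes were 34.9% and 28.3%, and 10 and 2 with SN, where all were 35.2% and 33.8%. The TRAIL arrays gave 8 and 0 by this measure (19.4% and 12.1% of all probes), TRAIL+C3/C2 gave 10 and 2 (40.1% and 29.5%), and TRAIL+SN also 10 and 2 (37.7% and 32.6%). The median difference of the 12 probes was 0.84 with C3/C2 beside 0.07 over all probes, 1.03 with SN beside −0.01, and 0.36 with TRAIL beside 0.04. In the co-treatments it was 1.46 beside 0.10 with TRAIL+C3/C2, and 1.43 beside 0.05 with TRAIL+SN. All 5 comparisons use the same NT arrays, and the probes of 1 gene may share transcripts.

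**Figure D1:**
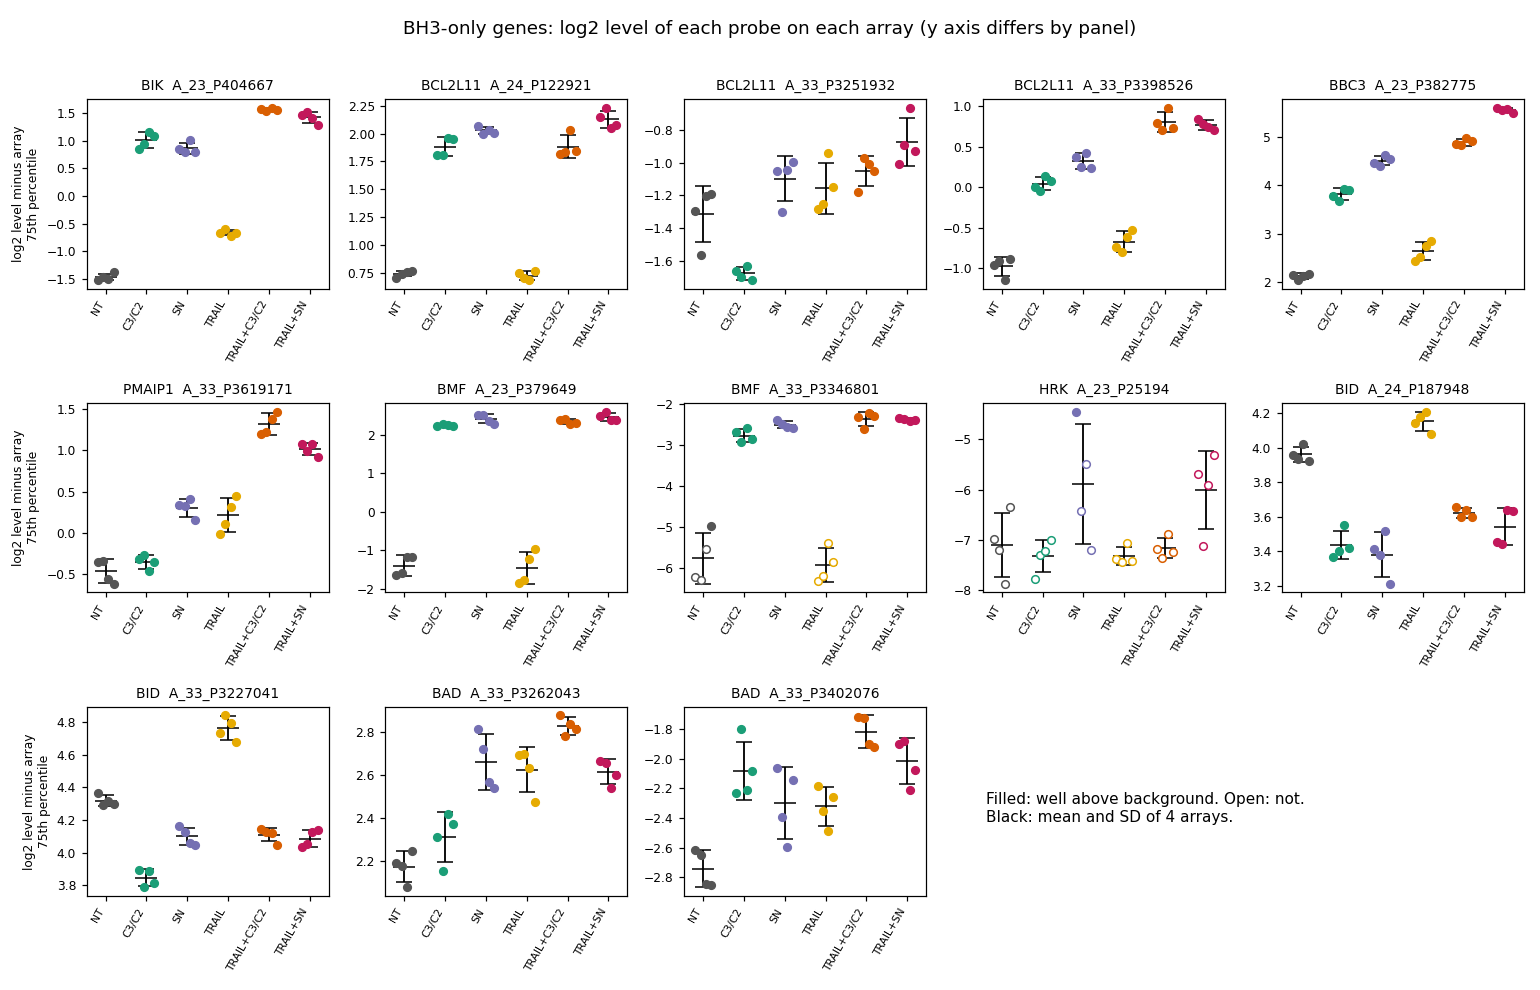
Log2 level relative to the array's 75th percentile (y axis, its range differs by panel) of each of the 13 probes on each of the 24 arrays, by group (x axis), with the mean and SD of 4 arrays in black and open circles for arrays not well above background. BMF A_23_P379649 lies between −1.85 and −0.98 on the NT and TRAIL arrays and between 2.23 and 2.61 on the others, and HRK is well above background on 1 array.

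**Figure D2:**
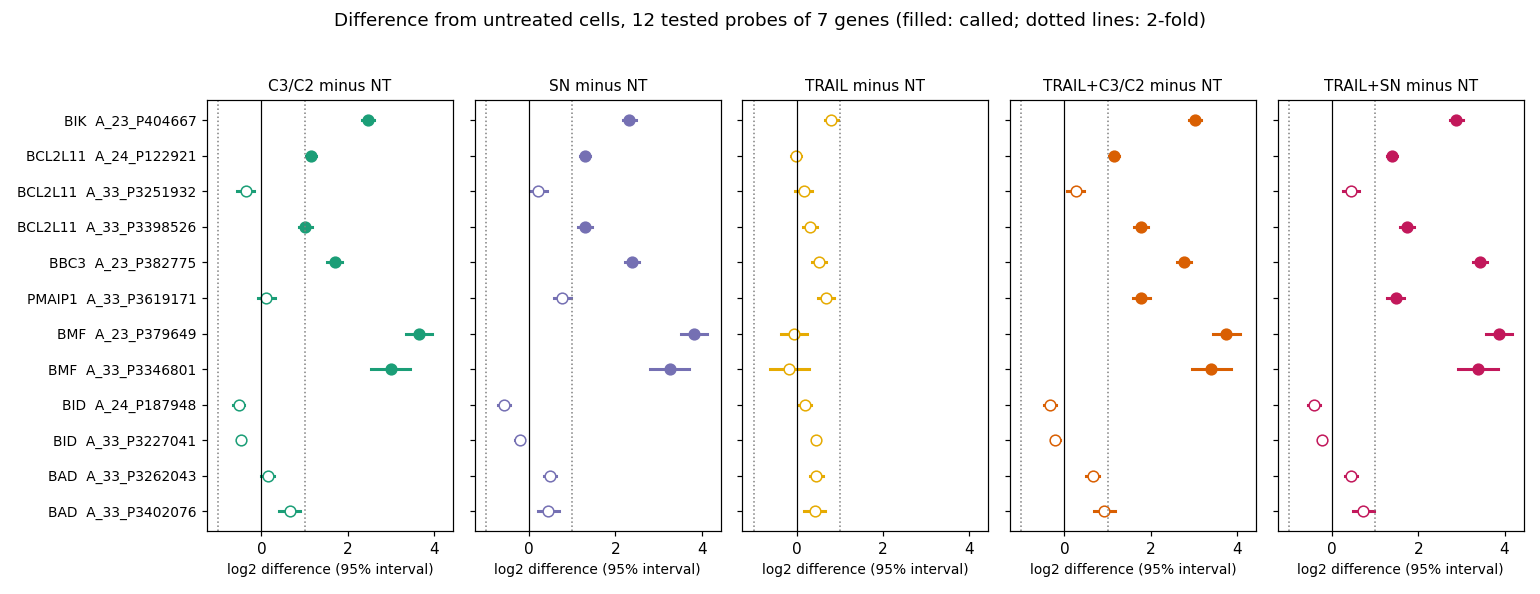
Log2 difference from NT (x axis, bars are 95% confidence intervals) of the 12 tested probes (y axis) with each of the 5 treatments, filled where called and open where not, with dotted lines at 2-fold. Filled points stand on the right side only, those of BMF A_33_P3346801 rest on NT arrays of which 1 of 4 was well above background, and the TRAIL panel holds none.

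BCL2L11 encodes BIM, which binds all anti-apoptotic family members and activates BAX. At the probe A_24_P122921 the NT arrays lay at 0.71, 0.74, 0.75 and 0.76 and the TRAIL arrays at 0.75, 0.70, 0.68 and 0.76. With C3/C2 they lay at 1.81, 1.81, 1.96 and 1.95 and with SN at 2.07, 2.00, 2.04 and 2.01. The co-treated arrays lay at 1.82, 1.83, 2.03 and 1.85 with TRAIL+C3/C2 and at 2.15, 2.23, 2.05 and 2.08 with TRAIL+SN. NT and TRAIL arrays were the low ones and overlapped each other, and neither overlapped any of the other groups. The difference from NT was 1.14 with C3/C2 (2.21-fold, adjusted p = 1.95e-13), 1.29 with SN (2.44-fold), and 1.14 and 1.39 with TRAIL+C3/C2 and TRAIL+SN, all with a standard error of 0.06. With TRAIL alone it was −0.02 (95% interval −0.13 to 0.10).

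A second BCL2L11 probe, A_33_P3398526, also rose with these treatments, and with TRAIL alone it lay above NT. Its levels were −0.97, −0.91, −1.15 and −0.88 in NT, 0.00, −0.05, 0.14 and 0.08 with C3/C2 and 0.38, 0.24, 0.43 and 0.24 with SN. With TRAIL they were −0.74, −0.80, −0.61 and −0.52, with TRAIL+C3/C2 0.79, 0.71, 0.98 and 0.73 and with TRAIL+SN 0.84, 0.77, 0.74 and 0.71. Every treated group lay above all NT arrays, and both co-treatments above the acids or SN alone. The differences from NT were 1.02 with C3/C2 and 1.30 with SN, and in the co-treatments 1.78 with C3/C2 and 1.74 with SN (standard error 0.08). TRAIL alone gave 0.31 (adjusted p = 0.00413), under 2-fold. The call with C3/C2 stood at the 2-fold limit and was lost without NT replicate 3 (0.96) or C3/C2 replicate 3 (0.99). It was also lost with normexp background (0.93), the array median (0.72), quantile normalization (0.95) and spike-in scaling (0.88), so this call depends on the scale chosen.

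The third BCL2L11 probe, A_33_P3251932, was not called with any treatment. It lay at −1.30, −1.56, −1.20 and −1.19 in NT, −1.66, −1.70, −1.63 and −1.72 with C3/C2 and −1.05, −1.30, −1.04 and −0.996 with SN. With TRAIL it lay at −1.28, −1.25, −0.94 and −1.15, with TRAIL+C3/C2 at −1.18, −0.97, −1.01 and −1.05 and with TRAIL+SN at −1.01, −0.89, −0.67 and −0.93. C3/C2 arrays were the low ones, below all NT arrays, the arrays with SN or with TRAIL overlapped those of NT, and the co-treated arrays lay above NT. Its difference from NT was −0.36 with C3/C2 (adjusted p = 0.00199), 0.22 with SN (adjusted p = 0.0477) and 0.16 with TRAIL, and in the co-treatments 0.26 with C3/C2 and 0.44 with SN (standard error 0.09). The direction with TRAIL+C3/C2 turned with the array median as the scale (−0.09) and with spike-in probes (−0.41), and that with TRAIL+SN with spike-in probes (−0.08). The single gene name thus covered readings that moved in opposite directions with C3/C2. The array design lists the same transcript for A_33_P3251932 and A_33_P3398526 and another for A_24_P122921. Which transcripts each probe reads in these cells was not determined here.

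BBC3 encodes PUMA, a BIM-like activator. Its NT arrays lay at 2.16, 2.04, 2.14 and 2.17 and its TRAIL arrays at 2.45, 2.53, 2.76 and 2.86. C3/C2 gave 3.79, 3.67, 3.93 and 3.90 and SN 4.47, 4.40, 4.62 and 4.54. With TRAIL+C3/C2 the levels were 4.84, 4.82, 4.98 and 4.92 and with TRAIL+SN 5.59, 5.56, 5.58 and 5.50. The 6 groups stood one above the other with no overlap, rising from NT through TRAIL, C3/C2 and SN to TRAIL+C3/C2 and at the top TRAIL+SN. Against NT the rise was 1.69 with C3/C2 (3.23-fold), 2.38 with SN (5.20-fold), 2.76 with TRAIL+C3/C2 (6.79-fold) and 3.43 with TRAIL+SN (10.8-fold, adjusted p = 1.05e-18), each with a standard error of 0.08. TRAIL alone gave 0.52 (1.43-fold, adjusted p = 4.22e-05), past the adjusted p but under 2-fold.

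BID encodes the protein that caspase-8 cleaves to its active form, a step that a transcript level does not show. None of its differences reached 2-fold, and its range over the groups was 0.77 at A_24_P187948 and 0.92 at A_33_P3227041. Both probes were lower than NT with C3/C2 (−0.53 and −0.47, adjusted p = 2.88e-07 and 2.09e-08) and with SN (−0.58 and −0.22). They were also lower with TRAIL+C3/C2 (−0.34 and −0.21) and with TRAIL+SN (−0.42 and −0.23), all past the adjusted p. With TRAIL alone both were above NT, by 0.19 (adjusted p = 0.0262) and 0.44 (adjusted p = 6.69e-07). The first of these turned with spike-in scaling (−0.07), and under that scaling A_24_P187948 was called lower with TRAIL+C3/C2 (−1.01). Past the adjusted p alone, 28.3% of all probes lay lower with C3/C2 and 33.8% with SN.

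BMF, which is held on myosin motors by a dynein light chain and binds anti-apoptotic members, had the widest range of all members tested. At A_23_P379649 its NT arrays lay at −1.64, −1.61, −1.18 and −1.17 and its TRAIL arrays at −1.85, −1.77, −1.24 and −0.98. Cells with C3/C2 lay at 2.25, 2.27, 2.25 and 2.23, and with SN at 2.52, 2.52, 2.36 and 2.29. The co-treatments gave 2.40, 2.42, 2.29 and 2.32 with TRAIL+C3/C2 and 2.50, 2.61, 2.40 and 2.39 with TRAIL+SN. Arrays fell into a low set, NT and TRAIL, and a high set of all others, with no array between, and in NT and in TRAIL replicates 1 and 2 lay below 3 and 4. The rise was 3.65 with C3/C2 (12.6-fold, adjusted p = 8.34e-15), 3.82 with SN (14.1-fold), and in the co-treatments 3.76 with C3/C2 (13.5-fold) and 3.88 with SN (14.7-fold), with a standard error of 0.15. With TRAIL alone the difference was −0.06 (95% interval −0.36 to 0.25).

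The second BMF probe, A_33_P3346801, was called in the same 4 comparisons, but it was dim. The levels in NT were −6.24, −6.30, −5.55 and −4.98, of which only replicate 4 was well above background, and those with TRAIL −6.33, −6.20, −5.40 and −5.85, none of them well above background. With C3/C2 they were −2.70, −2.94, −2.59 and −2.86, with SN −2.40, −2.49, −2.58 and −2.59, with TRAIL+C3/C2 −2.31, −2.62, −2.23 and −2.28 and with TRAIL+SN −2.35, −2.37, −2.42 and −2.40, well above background on every array. Arrays of these 4 groups lay above all NT and TRAIL arrays. Since NT was measured above background on 1 of 4 arrays, only a bound is given, for which an NT array below the dimmest signal still called well above background was raised to it. Relative to this NT level C3/C2 was at least 6.67-fold higher, SN at least 7.99-fold, and the co-treatments at least 8.87-fold (with C3/C2) and 8.73-fold (with SN). It passed the filter through the groups in which it is high.

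BIK, a BH3-only protein of the endoplasmic reticulum, rose with C3/C2 and with SN and stood highest in the co-treatments. The levels of its probe were −1.51, −1.46, −1.50 and −1.38 in NT and −0.66, −0.59, −0.71 and −0.67 with TRAIL. They were 0.84, 0.94, 1.16 and 1.09 with C3/C2 and 0.85, 0.80, 1.01 and 0.79 with SN. With TRAIL+C3/C2 they were 1.58, 1.53, 1.59 and 1.55, and with TRAIL+SN 1.46, 1.53, 1.41 and 1.29. All TRAIL arrays lay between those of NT and those with acids or SN, the C3/C2 and SN arrays overlapped, and the co-treated arrays lay above them. Against NT the difference was 2.47 with C3/C2 (5.55-fold, adjusted p = 3.02e-17), 2.32 with SN (5.01-fold), and in the co-treatments 3.02 with C3/C2 (8.13-fold) and 2.89 with SN (7.39-fold), with a standard error of 0.07. TRAIL alone gave 0.80 (1.75-fold, adjusted p = 2.59e-08), which was the largest difference of a member with TRAIL and not called.

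PMAIP1 encodes NOXA, which binds MCL1 and promotes its degradation. It was the only member called with the co-treatments and with none of the single treatments. In NT it lay at −0.35, −0.34, −0.55 and −0.62 and with C3/C2 at −0.31, −0.26, −0.46 and −0.36. With SN it lay at 0.34, 0.32, 0.41 and 0.15 and with TRAIL at −0.01, 0.11, 0.31 and 0.45. The co-treated arrays lay at 1.19, 1.22, 1.38 and 1.47 with TRAIL+C3/C2 and at 1.07, 0.99, 1.08 and 0.92 with TRAIL+SN. C3/C2 arrays overlapped those of NT, SN and TRAIL arrays lay above both and overlapped each other, and the co-treated arrays lay above all of these. The difference from NT was 0.11 with C3/C2 (95% interval −0.08 to 0.31), 0.77 with SN and 0.68 with TRAIL, and in the co-treatments 1.78 with C3/C2 (3.44-fold, adjusted p = 5.51e-13) and 1.48 with SN (2.79-fold, adjusted p = 9.64e-12), with a standard error of 0.09. Scaled to spike-in probes, the call with TRAIL+SN was lost (0.95).

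BAD, which is kept inactive by AKT and 14-3-3 proteins through its phosphorylation, had differences under 2-fold at both of its probes. A_33_P3262043 lay above NT by 0.49 with SN, by 0.45 with TRAIL, and by 0.66 (adjusted p = 4.13e-08) and 0.44 when TRAIL joined C3/C2 and SN, and by 0.14 with C3/C2 (adjusted p = 0.0901). A_33_P3402076 lay above NT by 0.66 with C3/C2, 0.44 with SN and 0.42 with TRAIL, and by 0.92 (adjusted p = 4.39e-07) and 0.72 when TRAIL joined C3/C2 and SN, and its level was between −2.85 and −1.72 over all arrays. With spike-in scaling the difference at A_33_P3262043 turned in both co-treatments (−0.02 with C3/C2 and −0.08 with SN). HRK, a member best known from neurons, was well above background on 1 of 24 arrays, SN replicate 1 at −4.44, and its other arrays lay between −7.88 and −5.32, so that it has no fold change here.

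For C3/C2 the comparison with NT can be made within a slide. On slide 2, with 3 arrays of each group, the same 6 probes were called, with differences of 3.57 for BMF A_23_P379649, 2.51 for BIK, 1.71 for BBC3 and 1.16 and 1.04 for BCL2L11. The second BMF probe was well above background on 1 of the 3 NT arrays there and is given no difference. SN and TRAIL lay on slide 3 and the co-treatments on slide 4, so that for these groups slide and treatment against NT cannot be told apart. The 75th percentile of intensity moved with the groups as well, with a median of 882.7 in NT, 820.1 in C3/C2, 758.8 in SN and 662.7 in TRAIL, and of 502.8 and 519.7 in TRAIL+C3/C2 and TRAIL+SN, and its part in the results was not tested beyond the other scalings. Scaled to spike-in probes, the median difference of all probes from NT became −0.22 with TRAIL, −0.57 when C3/C2 was added to it and −0.48 when SN was. Against NT, the calls of BMF, BIK and BBC3 with SN, C3/C2 and the co-treatments were kept under all scalings tried, whereas BCL2L11 A_24_P122921 was no longer called with C3/C2 (0.84) and TRAIL+C3/C2 (0.79) under the array median, nor with TRAIL+C3/C2 (0.47) and TRAIL+SN (0.86) under spike-in scaling, and A_33_P3398526 was called with C3/C2 under none of the other scalings (0.72 to 0.95).

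The question whether the acids stand for the whole supernatant was addressed by setting SN beside C3/C2. No member was called between them, where 1.21% of all probes were called higher with SN and 4.28% lower. Past the adjusted p alone, 7 of 12 probes were higher with SN and none lower, where 21.4% and 24.1% of all probes were. BBC3 was higher with SN by 0.69 (1.61-fold, adjusted p = 6.01e-07) and PMAIP1 by 0.65 (1.57-fold, adjusted p = 9.73e-06), with no overlap of arrays. The 3 BCL2L11 probes were higher with SN by 0.15, 0.28 and 0.58, in the order of their sequences. BIK differed by −0.15 (95% interval −0.29 to −0.01, adjusted p = 0.0816) and BMF by 0.17 (95% interval −0.13 to 0.47) at A_23_P379649. C3/C2 and SN lay on different slides.

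The same question in the presence of TRAIL was asked on 1 slide, slide 4. Between TRAIL+SN and TRAIL+C3/C2 no member was called, where 0.981% of all probes were called higher with TRAIL+SN and 2.5% lower. Past the adjusted p alone, 2 of 12 probes were higher and 2 lower, where 15.7% and 21.4% of all probes were. BBC3 was higher with TRAIL+SN by 0.67 (1.59-fold, adjusted p = 1.44e-06) beside 0.69 without TRAIL, and BCL2L11 A_24_P122921 by 0.25 (adjusted p = 0.00152). PMAIP1 was lower with TRAIL+SN, with a difference of −0.30 (adjusted p = 0.0151) and so was BAD A_33_P3262043, with −0.21 (adjusted p = 0.0218). BIK differed by −0.14 (adjusted p = 0.117) and BMF A_23_P379649 by 0.12 (95% interval −0.18 to 0.42).

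TRAIL added to C3/C2 was compared with C3/C2 alone, and since TRAIL+C3/C2 lay on slide 4 and C3/C2 on slides 1 and 2, slide and the addition of TRAIL cannot be told apart. PMAIP1 rose by 1.67 (3.17-fold, adjusted p = 5.65e-11) and BBC3 by 1.07 (2.10-fold, adjusted p = 2.51e-09), the 2 of 12 probes that were called, where 1.53% of all probes were called higher. The call of PMAIP1 was kept under all scalings, whereas BBC3 fell under 2-fold with normexp background (0.996), with quantile normalization (0.93) and with spike-in scaling (0.54). In all 8 of 12 probes passed the adjusted p alone, all higher, where 21.4% of all probes did. Those under 2-fold were BCL2L11 A_33_P3398526 (0.76) and A_33_P3251932 (0.62), BIK (0.55), BAD A_33_P3262043 (0.52) and the BID probes (0.19 and 0.27). Spike-in scaling turned the last 3 of these (−0.01, −0.34 and −0.26). BCL2L11 A_24_P122921 and the BMF probes did not pass, with 95% intervals of −0.12 to 0.11, −0.20 to 0.41 and −0.04 to 0.87.

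TRAIL added to SN gave fewer calls, between slide 4 (TRAIL+SN) and slide 3 (SN), so that slide cannot be told apart here either. BBC3 rose by 1.05 against SN alone (2.07-fold, adjusted p = 9.01e-09), the only probe called of the 12, where 0.87% of all probes were called higher. It was no longer called with the array median (0.98), quantile normalization (0.98) or spike-in scaling (0.49). PMAIP1 (0.71), BIK (0.56) and BCL2L11 A_33_P3398526 (0.45) passed the adjusted p under 2-fold, which makes 4 of 12 probes higher by that measure where 11.9% of all were, and the last of these turned with spike-in scaling (−0.11). The BAD and BID probes that TRAIL alone had moved most, A_33_P3262043 and A_33_P3227041, stood at −0.04 and −0.01 against SN alone. The other probes of these genes, BAD A_33_P3402076 and BID A_24_P187948, stood at 0.28 and 0.16 (adjusted p = 0.0964 and 0.0809). With TRAIL alone these 2 had differed from NT by 0.42 and 0.19.

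Whether the co-treatments differed from the sum of the single treatments on the log2 scale was tested by an interaction term. With C3/C2, PMAIP1 exceeded the sum by 0.99 (standard error 0.13, adjusted p = 0.000152), BBC3 by 0.55 (adjusted p = 0.00795) and BCL2L11 A_33_P3398526 by 0.45 (adjusted p = 0.0257). The other BCL2L11 probes did not pass, with 0.02 at A_24_P122921 (adjusted p = 0.957) and 0.47 at A_33_P3251932 (adjusted p = 0.0685). No member was called at 2-fold, where 0.608% of all probes were called in either direction. Past the adjusted p alone 1.52% of all probes were higher and 0.902% lower. The PMAIP1 term stood at the 2-fold limit and passed it without NT replicate 3 or 4, C3/C2 replicate 2, TRAIL replicate 3 or 4, or TRAIL+C3/C2 replicate 1 or 2, each left out alone (1.02 to 1.07). With SN, BBC3 exceeded the sum by 0.53 (adjusted p = 0.00195), whereas BID A_33_P3227041 and BAD A_33_P3262043 fell short of it, with terms of −0.46 (adjusted p = 9.56e-05) and −0.49 (adjusted p = 0.00141). The other BID and BAD probes did not pass, with −0.03 at A_24_P187948 (adjusted p = 0.853) and −0.14 at A_33_P3402076 (adjusted p = 0.601). No member was called, where 2.98% of all probes were, and past the adjusted p alone 10.1% of all probes were higher and 11.5% lower. The PMAIP1 term with SN was 0.03 (95% interval −0.25 to 0.31). The terms of BIK were negative, −0.25 with C3/C2 (adjusted p = 0.194) and −0.24 with SN (adjusted p = 0.0766), and those of BMF A_23_P379649 did not pass the test. At BBC3, spike-in scaling lowered the rise on adding TRAIL from 1.07 to 0.54 in C3/C2 and from 1.05 to 0.49 in SN. The median difference of all probes with TRAIL alone moved too, from 0.04 to −0.22. The interaction terms under spike-in scaling are not given here, so their size may depend on the scale.

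**Figure D3:**
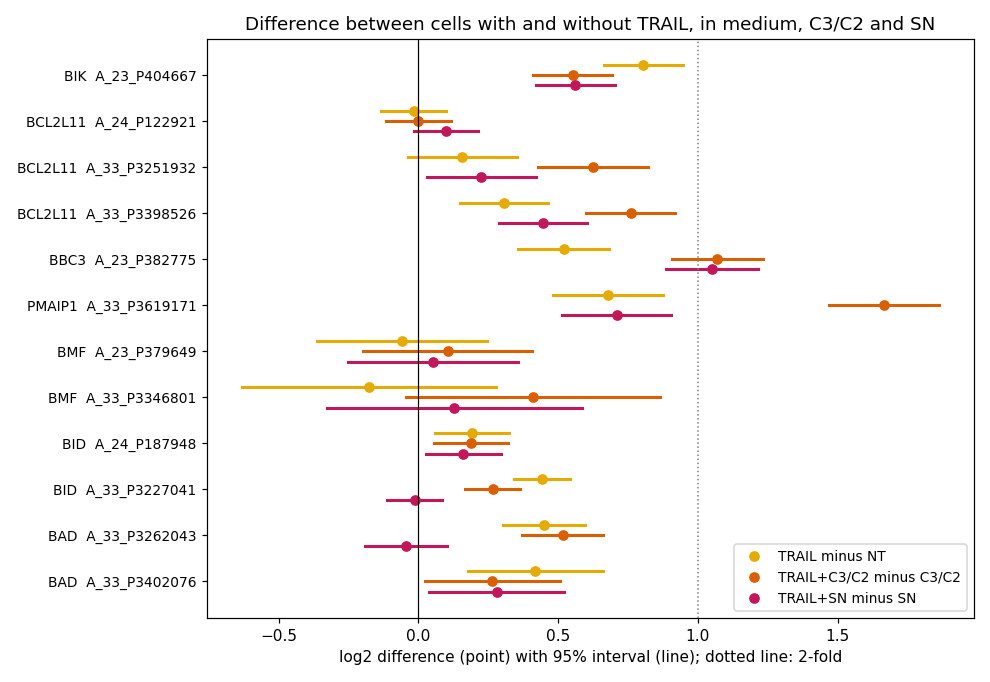
Log2 difference (x axis, lines are 95% confidence intervals) between cells with and without TRAIL, in untreated medium, in C3/C2 and in SN, for the 12 tested probes (y axis), with a dotted line at 2-fold. PMAIP1 stands at 0.68, 1.67 and 0.71, BBC3 at 0.52, 1.07 and 1.05, and the intervals of BMF A_23_P379649 include 0 in each case.

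The proteins that BH3-only members bind were examined by the brightest tested probe of each gene. Of the 5 anti-apoptotic genes, 4 were tested (BCL2 was not), and none was called in any comparison on the scale used here. Calls of these partner genes under the other scalings were not tested. BCL2L1, which encodes BCL-XL, lay lower than NT, with differences of −0.92 with C3/C2, −0.65 with SN and −0.82 with either co-treatment, all past the adjusted p and under 2-fold. With the array median as the scale, the median difference of all probes moved from 0.07 to −0.23 with C3/C2. With TRAIL+C3/C2 it moved from 0.10 to −0.24. Whether BCL2L1 stays under 2-fold on that scale was not tested. MCL1 lay above NT by 0.18 to 0.61 with the treatments other than TRAIL, for which it was 0.15. Of the 3 pore-forming genes, BAK1 alone was called, higher by 1.05 with C3/C2 and 1.62 with SN, and by 1.41 and 1.58 in the co-treatments with C3/C2 and SN, and BAX was not called. Its brightest probe lay at −0.28 with C3/C2, −0.44 with SN, −0.39 and −0.54 in the co-treatments, all past the adjusted p, and −0.19 with TRAIL (adjusted p = 0.0833, limma), whereas its other probe lay between −0.09 and 0.16 and passed the test with no treatment.

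Among 5 further proteins with a BH3 or similar motif, 3 were tested, and BNIP3L, a mitophagy receptor, was called with TRAIL+C3/C2 (1.13), while another of its probes was also called with C3/C2 (1.09). Of 11 genes for proteins that hold, cleave or phosphorylate members, CASP8 alone was called, lower with C3/C2 (−1.14), SN (−1.02) and TRAIL+C3/C2 (−1.31), and another of its probes was called with SN only (−1.03). The dynein light chain genes that anchor BMF and BIM, DYNLL1 and DYNLL2, were not called, with differences of up to 0.24 and 0.76.

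The 7 genes described here for transcription factors known to act on BH3-only genes were all tested. FOXO1, which acts on BCL2L11, passed the call in the co-treatments with C3/C2 (1.21) and SN (1.25), higher than NT. A second probe of FOXO3 was called with SN only (1.01, near the 2-fold limit). With SN the brightest FOXO3 probe lay at 0.73 and the third at 0.78, and neither was called. DDIT3, the CHOP factor of the unfolded protein response, was called higher with SN (3.78), TRAIL+SN (3.60) and TRAIL+C3/C2 (1.04, near the 2-fold limit). SN and C3/C2 differed at it by 3.28. JUN was called higher with SN (1.43) and TRAIL+SN (1.50), and ATF4 with TRAIL+SN (1.28). With C3/C2 alone none of the 7 transcription factor genes was called, and with TRAIL alone no gene of these lists was.

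**Figure D4:**
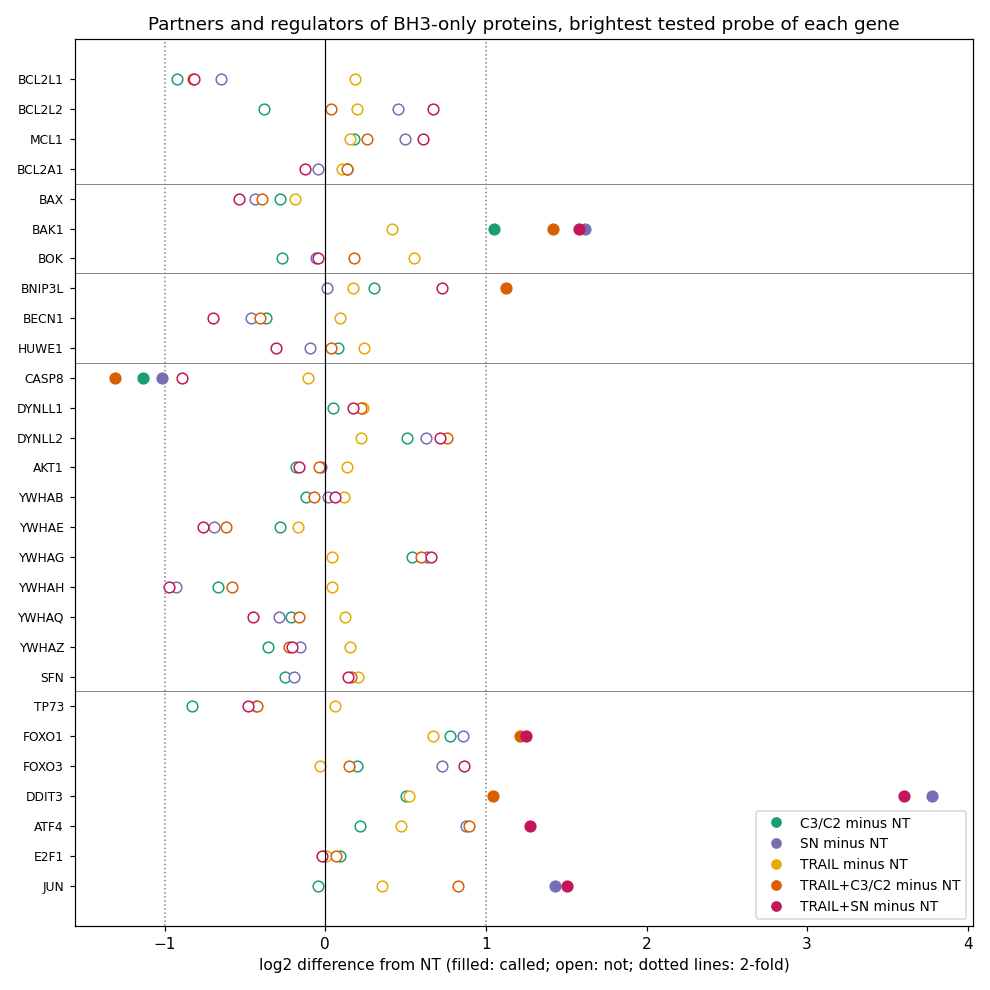
Log2 difference from NT (x axis) of the 28 tested genes for partners and regulators of BH3-only proteins (y axis, grouped by horizontal lines in the order anti-apoptotic, pore-forming, other BH3-motif, holding or cleaving, and transcription factors), filled where called, with dotted lines at 2-fold and a colour for each treatment. BAK1 stands right of 2-fold with all treatments but TRAIL, CASP8 has points left of it, and DDIT3 reaches 3.78 with SN.

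BMF A_23_P379649, the member probe with the widest range of group means (3.93), was also set beside 12385 other named genes, each profile centred on its own mean over the 24 arrays. The smallest root mean square distances were those of DPF1 (0.233), UAP1L1 (0.233), SNAI3 (0.251), KRT12 (0.257) and NES (0.272), with a median of 1.80 over all candidates. DPF1 stood 3.29 above NT with C3/C2 and 3.79 with SN, 3.53 and 3.83 above it when TRAIL joined them, and at −0.15 with TRAIL alone. The arrays share their scale and slides, so that likeness is a description only.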

How the data were processed

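Total RNA of 24 HT29 cultures was labelled with Cy3 and each hybridised alone to an Agilent whole human genome array. Per the file headers, the deposited intensity values were extracted with Agilent Feature Extraction 10.7.3.1 (protocol GE1_107_Sep09), which subtracts background, without a scaling from array to array. A further deposited table holds these intensities over each array's median (ratio of 0.99999 to 1 between that table and the median-scaled scanner values over all spots), which served as an alternative. Its 24 flag columns were not used. The authors analysed their data in Rosetta Resolver. The 4 arrays of a group stem from 2 independent experiments in duplicate, not told apart by the labels. Slides and arrays limit the comparisons: slide 1 held replicate 1 of NT and of C3/C2, slide 2 their other replicates, slide 3 SN and TRAIL and slide 4 the co-treatments.

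From 58717 spots per array that were not controls, log2 of the processed intensity minus the 75th percentile of the array was taken, and spots of a probe were averaged. No spot was saturated. A probe was kept if its signal was well above background throughout the 4 arrays of some group. Group means of 24 arrays were fitted with limma 3.58.1 in R 4.3.3 (18 residual degrees of freedom), which had been tested on simulated data, and 11 comparisons were drawn from the fit, each adjusted over 27940 probes. The standard error of a difference had a median of 0.11 over all probes, and the number of arrays limits the precision. Replicates of a group correlated across probes with r between 0.9919 and 0.9975. Alternatives concerned background, scaling, filter, call rule, slide, replicate number and single arrays. A member is given with every array where at least 1 of its probes was called, other genes by the brightest tested probe, and likeness as the 5 smallest root mean square distances. The members and lists were chosen with earlier results of these data known. Probes named after their values were seen are the second probe of BNIP3L, CASP8, FOXO3 and BAX and the third probe of FOXO3. One gene of the fixed lists is not reported here. Promoter windows came from RefSeq (GRCh38.p14), probe positions from the array design (hg19).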

Additional observations from a re-analysis of the deposited data

Results flagged for a closer look

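On 3 of 78 sets of 4 arrays (13 probes in 6 groups), 1 array lay far from the rest of its group, and chance alone sets about 5% of such sets apart. BCL2L11 A_24_P122921 lay at 2.03 on TRAIL+C3/C2 replicate 3 and at 1.82 to 1.85 on the others. BCL2L11 A_33_P3251932 lay at −1.30 on SN replicate 2 and at −1.05 to −0.996 on the others. HRK lay at −7.07 on TRAIL replicate 3 and at −7.44 to −7.39 on the others, none of them well above background.

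By the test of the interaction, the difference made by TRAIL depended on C3/C2 or SN at 1 probe each of 5 members. With C3/C2 it was larger by 0.99 for PMAIP1, by 0.55 for BBC3 and by 0.45 for BCL2L11 A_33_P3398526. With SN it was larger by 0.53 for BBC3, and the interaction was −0.46 for BID A_33_P3227041 and −0.49 for BAD A_33_P3262043. Other probes of the same genes did not pass. With C3/C2 the term was 0.02 at BCL2L11 A_24_P122921 and 0.47 at A_33_P3251932. With SN it was −0.03 at BID A_24_P187948 and −0.14 at BAD A_33_P3402076. Past the adjusted p, 3 of 12 member probes were higher with C3/C2, where 1.52% of all probes were and 0.902% were lower. With SN 1 was higher and 2 lower, where 10.1% and 11.5% of all probes were. The 4 groups of each interaction lay on more than 1 slide, so slide and treatment cannot be told apart in these values. Their size may also depend on the scale, since terms under spike-in scaling are not given here.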

How the results depend on the processing

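The 12 tested member probes gave 29 calls over 11 comparisons. None of these changed without a filter on dim probes, with slide as a random block, with an unadjusted p or with only the groups compared. Without that filter HRK also passed against NT with SN and with TRAIL+SN, and between SN and C3/C2. Its levels are background on nearly all arrays. Without a minimum fold change, 10 probes passed against NT for C3/C2, 12 for SN, 8 for TRAIL and 12 for each co-treatment, 7 between SN and C3/C2, 4 between the co-treatments, 8 when TRAIL was added to C3/C2 and 4 when it was added to SN, and 3 in each interaction. TRAIL added to C3/C2 gave 1 call in place of 2 with normexp background, quantile normalization and spike-in scaling. TRAIL added to SN gave 0 in place of 1 with the array median, the deposited table, quantile normalization and spike-in scaling. The interaction with C3/C2 gave 1 in place of 0 with quantile normalization (PMAIP1, 1.01). Leaving out 1 array at a time gave 5 to 6 calls with C3/C2 and 0 to 1 for the interaction with C3/C2, and in the other comparisons the main count. Directions turned for BCL2L11 A_33_P3251932 with TRAIL+C3/C2 (−0.0854 with the array median and the deposited table, −0.41 with spike-in scaling) and, with spike-in scaling, with TRAIL+SN (−0.0847), for BID A_24_P187948 with TRAIL (−0.067), for BAD A_33_P3262043 with TRAIL+C3/C2 (−0.0161) and TRAIL+SN (−0.0815), on adding TRAIL to C3/C2 for BAD A_33_P3262043 (−0.0146), BID A_24_P187948 (−0.34) and BID A_33_P3227041 (−0.26), and on adding TRAIL to SN for BCL2L11 A_33_P3398526 (−0.11). The cause was not tested. With the replicate number as a block, 29 calls were made, all 29 shared. Same-numbered arrays of different groups correlated in their deviations from the group means with r of 0.0514 to 0.447, and 23 of 24 arrays correlated best with their own number, a hint from the data and not from the design, so the numbers were not taken as pairing the arrays. Arrays of other groups that shared the pair of numbers 1 and 2 or 3 and 4, but not the number, had a median r of 0.14, and those of the other pair −0.16. With these pairs averaged as duplicates, chosen after seeing the data, 2 values per group and 6 residual degrees of freedom remained and all 29 calls were kept. Signal near background limits HRK and the second BMF probe.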

Other observations

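HRK, well above background on 1 of 24 arrays, spread from −7.21 to −4.44 on the SN arrays, from −7.13 to −5.32 on the TRAIL+SN arrays and from −7.88 to −6.35 on the NT arrays, so the groups overlapped, and no fold is given for levels that are mostly background.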
